A study of Arabidopsis thaliana with 30 samples.

Results

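Cytosolic ribosomal proteins of Arabidopsis thaliana were followed through an auxin treatment of the root. They were taken as 60 listed loci, by what they encode, from a list drawn up with earlier results of these data known. Of these, 34 were paired by the probe annotation with a probe set of their own and were measured, and all 34 had signal enough to be tested. A further 9 were listed only on probe sets shared by several genes, and 17 had no probe set in the annotation used here. The 34 are called members below, out of 13355 genes measured and 9321 tested on these arrays.

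Roots of 1-week-old seedlings of the accession Col-0 were profiled on 30 single-colour arrays, 3 in each of 10 groups. Seedlings had received 5 µM indole-3-acetic acid (IAA, the main natural auxin) or solvent alone (mock) for 2 h. Cells were released from the treated roots by 1 h of wall digestion and sorted for green fluorescence in 4 populations. These were the stele, marked by pWOL::GFP, the xylem-pole pericycle, marked by the enhancer trap line E3754, the epidermis with lateral root cap, marked by pWER::GFP, and the columella, marked by the enhancer trap line PET111. Intact roots, neither digested nor sorted, were the fifth sample type. The labels do not state the plant line of the intact roots. Each sorted tissue came from a line of its own, so tissue and line cannot be told apart. Each of the 5 sample types had an auxin and a mock group. The digestion of auxin-treated roots also held 5 µM IAA, so sorted cells were exposed for longer than intact roots. A sorted population holds whatever cells express its reporter.

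Each ribosome of the plant cytosol joins a small subunit, which reads the messenger RNA, to a large subunit, which forms the peptide bonds. The subunits are put together in the nucleolus from ribosomal RNA and ribosomal proteins, so their genes tend to be expressed together and most strongly in growing and dividing cells. In Arabidopsis nearly every ribosomal protein is encoded by a small family of near-identical genes, and mutants in several of them have altered leaf shape or auxin-related defects. PGY1 (PIGGYBACK1, AT2G27530), one such gene, was the only member with a symbol of its own in RefSeq. The others are given by locus. By a list drawn up for this work, 10 members belong to the small and 24 to the large subunit.

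The arrays carry MAS5 signals, a linear measure of probe set brightness that the authors' processing had scaled to a trimmed mean of 250 on every array. A signal cannot be set against that of another probe set, and near-identical relatives may hybridise to the same probes. All changes below are differences of log2(signal + 16), which understate the change of dim genes. Calls were made with limma where the p, adjusted over all 9321 genes by the Benjamini-Hochberg method, was under 0.05, and every value after ± beside such a change is a standard error. In each sample type the median standard error of the auxin response was 0.226 over the members and 0.285 over all genes tested. A change of the same size was therefore called more readily in a typical member, and shares called over all genes are not like for like. The labels do not say that the 3 arrays of a group came from separate cultures, so the spread that p-values rest on is that of these arrays and could be technical. In such bulk samples, fewer cells of a type and less RNA per cell cannot be told apart.

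The 5 auxin-induced genes used to check the treatment were called higher in all 5 sample types, with changes in intact roots between 3.83 for WES1 and 6.71 for IAA29. The labelled tissues could be checked in part. LBD16, the only measured gene of 3 pericycle markers, had 102 to 265 in mock pericycle, against 33.2 to 83.7 in mock stele and 10.2 to 26.2 in the other sorted mock cells. EXPA7, the only measured gene of 5 markers of the epidermis, had 250.0 to 348 in mock epidermis, and its highest value in other sorted mock cells was 204. In mock intact roots LBD16 had 197 to 234, within its range in mock pericycle, and EXPA7 had 393 to 484, above mock epidermis. Neither gene was thus shown to be enriched in its sorted tissue over the whole root. In the auxin-treated arrays neither gene set its tissue apart from all others. LBD16 had 467 to 564 in auxin-treated pericycle and 350 to 679 in auxin-treated stele, and EXPA7 had 27.5 to 51.1 in auxin-treated epidermis and 9.71 to 39.0 over the other sorted auxin arrays. None of the 5 stele and none of the 5 columella markers was measured, so those 2 labels could not be checked. The 3 measured of 5 markers of endodermis and cortex had signal in all sorted mock cells. They summed to 293 to 319 in stele, 431 to 606 in pericycle, 135 to 270 in epidermis and 327 to 792 in columella. In mock intact roots they summed to 1140 to 1280.

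In the stele, auxin raised 26 of the 34 members and lowered none. Over all genes tested, 24.4% were called, 14.2% higher and 10.1% lower. The members' median change was 0.67, against 0.14 over all genes. All 34 changes were positive, against 5522 of the 9321 genes tested. Members share their arrays, so these signs are not independent of one another, here and in the other sample types. In 31 members each of the 3 auxin arrays lay above each of the 3 mock arrays, a pattern that 25.5% of all genes tested showed. Both subunits took part, with 8 of 10 small-subunit members and 18 of 24 large-subunit members called higher.

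AT2G37600, a large-subunit gene, had signals of 399.7, 335.1 and 470.3 in auxin-treated stele, against 169.1, 123.8 and 132.1 in mock stele. The 3 auxin arrays stood well clear of the mock arrays. This was the largest rise of a member in the stele, 1.40 ± 0.29 (adjusted p = 5.58e-04), or 2.65-fold. AT1G07070 had 617.3, 1031 and 827.1 with auxin and 274.8, 352.5 and 408.6 without, and rose by 1.21 ± 0.32 (adjusted p = 0.00596). Its groups did not overlap, although the auxin arrays differed widely among themselves.

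For AT1G27400 the stele signals were 2960, 3266 and 2882 under auxin and 1547, 1280 and 1442 under mock treatment. Both groups were tight, and the rise was 1.09 ± 0.25 (adjusted p = 0.00157), or 2.12-fold. AT2G40010 gave 307.8, 272.0 and 244.5 in auxin-treated stele and 79.11, 162.8 and 162.7 in mock stele. Here mock array 1 was low beside the other 2, and the rise was 1.00 ± 0.28 (adjusted p = 0.00835). AT2G40010, AT2G37600 and AT1G07070 were the members of lowest mean mock signal, at 134.9, 141.7 and 345.3 in mock stele. Their standard errors in the stele, 0.28 to 0.32, were above the members' median of 0.23.

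The 8 members not called in the stele were AT2G39390, AT3G09200, AT1G18540, AT2G37190, AT1G15930, AT1G77940, AT2G27710 and AT3G02080. Their changes ran from 0.37 to 0.67 with adjusted p between 0.0521 and 0.300. The count depended on single arrays, being 9 without mock array 1 and 13 without auxin array 2. In the same samples the summed signal of PRL and BBM, the 2 measured genes of 20 of cell division and the meristem, was 701 to 956 with auxin and 265 to 461 without, and that of 3 shoot genes (LHCB4.1, LHCB4.2 and PRK, of photosynthesis) was 374 to 409 with auxin and 181 to 236 without. Their part in the members' change was not tested.

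**Figure D1:**
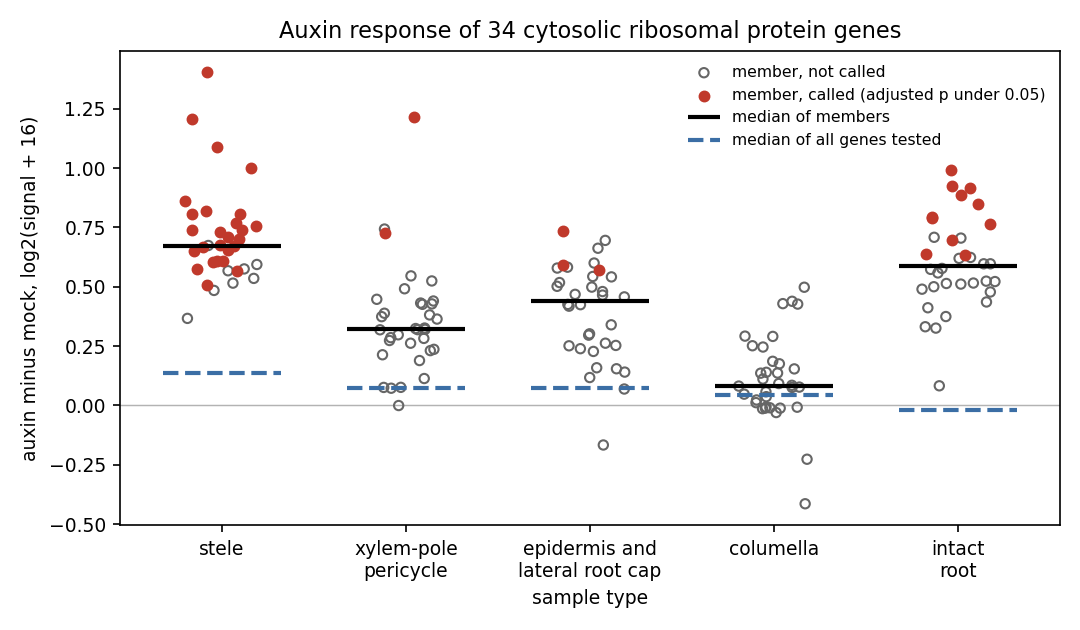
Auxin minus mock change of each of the 34 members, in log2(signal + 16), in the 5 sample types, with filled points for members called at adjusted p under 0.05, a solid line for the members' median and a dashed line for the median of all genes tested. In the stele 26 points are filled and the median is 0.67, in the columella no point is filled and the median is 0.08, and in intact roots 11 are filled and the median is 0.59.

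In the xylem-pole pericycle 2 of the 34 members rose, where 12.3% of all genes were called (6.57% higher, 5.7% lower). The members' share called higher did not exceed that of all genes. The members' median change was 0.32, against 0.07 over all genes. A positive change was seen in 33 of 34 members, against 5212 of the 9321 genes tested. AT2G40010 had 208.2, 185.8 and 209.1 in auxin-treated pericycle, against 76.37, 96.35 and 62.29 in mock pericycle. With no overlap between its groups it rose by 1.22 ± 0.28 (adjusted p = 0.00324), the largest change of any member in this tissue.

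AT1G27400 gave pericycle signals of 1550, 1673 and 1435 under auxin and 775.1, 1247 and 829.4 under mock treatment. Its 3 auxin arrays lay above the mock arrays and the rise of 0.73 ± 0.25 was called narrowly (adjusted p = 0.0489). AT1G07070 had a change of similar size, 0.74 ± 0.32, that was not called (adjusted p = 0.128). In only 5 of the 34 members were all auxin arrays above all mock arrays, a share close to the 13.2% of genes tested. Leaving out mock array 1, auxin array 2 or auxin array 3 left 1 member called, and the call of AT1G27400 was lost in 10 of 15 alternatives. The 3 shoot genes summed to 505 to 650 with auxin and 237 to 372 without, EXPA7 had 9.71 to 39.0 with auxin and 52.4 to 116 without, and their part in the members' change was not tested.

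In the epidermis and lateral root cap 3 members rose, where 12.8% of all genes were called (5.95% higher, 6.82% lower). The median change of the members was 0.44, against 0.07 over all genes. It was positive in 33 of 34 members, against 5234 of the 9321 genes tested. Without the adjustment over genes, 18 members had a p under 0.05, against 2348 of the 9321 genes tested. AT3G04920 had 2229, 2087 and 2726 in auxin-treated and 1022, 1535 and 1725 in mock epidermis. The lowest auxin array was above the highest mock array, and it rose by 0.74 ± 0.21 (adjusted p = 0.0148).

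AT2G17360 had epidermal signals of 1621, 1920 and 1891 with auxin and 907.6, 1307 and 1434 without, a rise of 0.59 ± 0.18 (adjusted p = 0.0239). AT1G08360 gave 3986, 4523 and 4557 with auxin, against 2524, 2510 and 3924 without, a rise of 0.57 ± 0.20 (adjusted p = 0.0471). In AT1G08360 mock array 3 came close to the auxin arrays. All auxin arrays exceeded all mock arrays in 15 members, against 16.3% of genes tested. The number called was 0 without mock array 1 or without auxin array 3, 1 without auxin array 2, 6 without mock array 3 and 7 without auxin array 1, and the call of AT1G08360 was lost in 8 of 15 alternatives. The 3 shoot genes summed to 408 to 523 with auxin and 173 to 234 without, EXPA7 had 27.5 to 51.1 with auxin and 250.0 to 348 without, and their part in the members' change was not tested.

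In the columella limma called none of the 34 members. Of them 2 had an unadjusted p under 0.05, against 1736 of the 9321 genes tested, a larger share. Over all genes 7.09% were called (3.75% higher, 3.34% lower). The members' median change was 0.08, against 0.05 over all genes. A positive change was seen in 25 of 34 members, against 5100 of the 9321 genes tested. The members' changes ran from -0.41 for AT2G20450 to 0.50 for AT1G67430 (adjusted p = 0.175). AT2G20450 had 1680, 1479 and 1159 in auxin-treated columella and 1691, 2057 and 1976 in mock columella, all auxin arrays being the lower (adjusted p = 0.374). It was the only member with that pattern, which 10.4% of genes tested showed, and 5 members had the opposite one, against 12.9% of genes. In the stele the same gene gave 4686, 4620 and 3633 with auxin and 2352, 2804 and 2464 without, a rise of 0.76 ± 0.24 (adjusted p = 0.0201). The 3 shoot genes summed to 462 to 1000 in auxin-treated and 298 to 535 in mock columella, and EXPA7 had 12.9 to 20.4 with auxin and 70.4 to 204 without.

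Averaged over the 4 sorted tissues, 29 of 34 members rose and none fell, against 41.2% of genes called (25.0% higher, 16.2% lower). All 10 small-subunit members and 19 of 24 large-subunit members were called. The median was 0.37, against 0.09 over all genes. AT2G40010 had the largest average change, 0.67 ± 0.14 (adjusted p = 2.31e-04), followed by AT1G27400 with 0.61 ± 0.12 (adjusted p = 1.68e-04) and AT2G36160 with 0.61 ± 0.13 (adjusted p = 2.02e-04). The fourth, AT3G04920, changed by 0.56 ± 0.11 (adjusted p = 6.62e-05) with a positive change in each tissue, from 0.29 in the columella to 0.81 in the stele. The 5 members not called were AT1G77940, AT1G18540, AT2G27710, AT2G20450 and AT2G39390, with changes of 0.22 to 0.29. This average shares its arrays with the 4 tissue responses and is no separate evidence for them. In the same comparison all 3 shoot genes were called higher, with a median of 0.68, and EXPA7 was called lower at -1.84 ± 0.17 (adjusted p = 5.61e-11), and their part in the members' change was not tested.

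**Figure D2:**
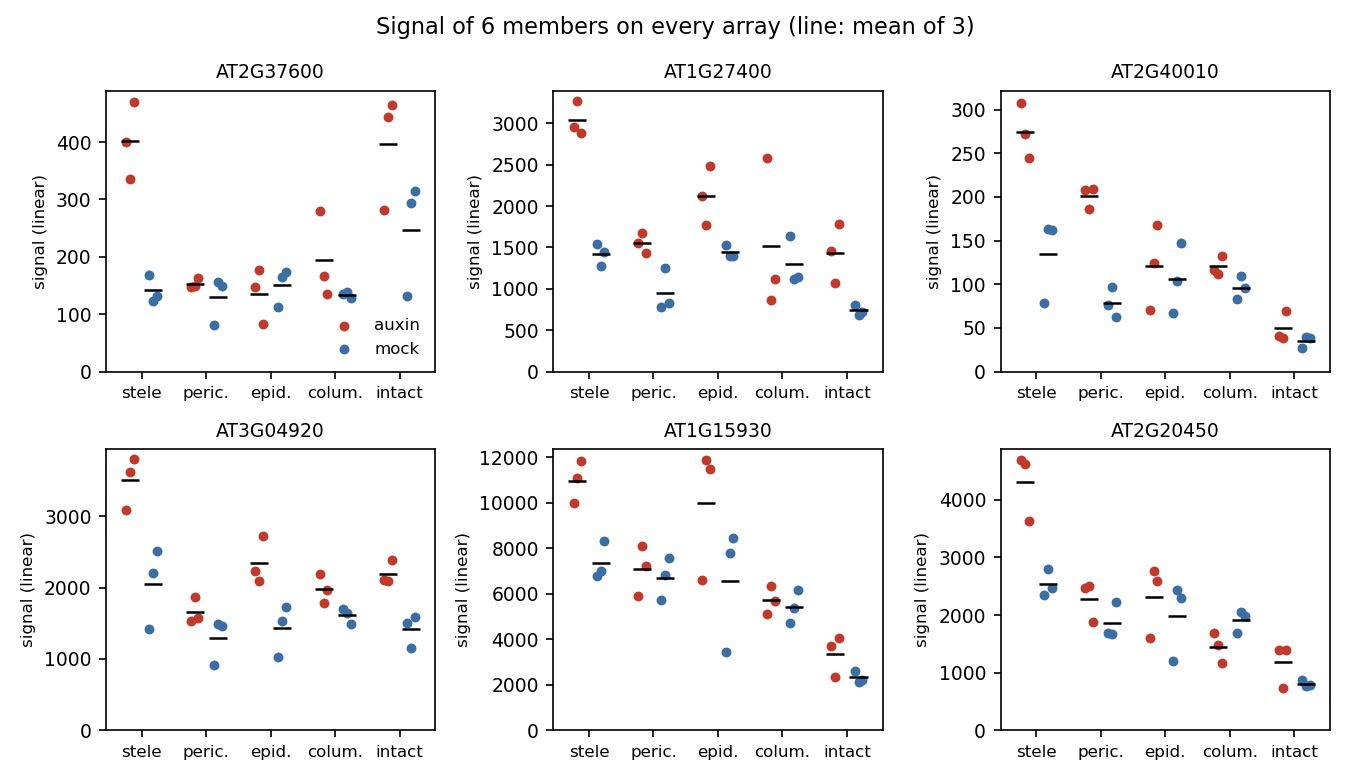
MAS5 signal (linear axis starting at 0, a scale of its own in each panel) of 6 members on every array, with auxin points left of mock points in each sample type and a line for the mean of 3. AT2G37600 stands out in auxin-treated stele, where its 3 arrays lie between 335.1 and 470.3, and AT2G40010 in auxin-treated stele and pericycle.

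Among the sorted tissues, 30 of the 34 members had their largest change in the stele and 25 had their smallest in the columella. How many of all genes show this order was not counted. Over all genes the median change was likewise largest in the stele, 0.14, and smallest in the columella, 0.05. Whether a member's response differed between the 4 tissues was tested by a moderated F-test in limma. It called none of the members, and 2.59% of all genes were called. The unadjusted p was under 0.05 for 4 members, against 1528 of the 9321 genes tested, a larger share. AT2G37600 had the smallest p (adjusted p = 0.0959), with changes of 1.40 in the stele, 0.26 in the pericycle, -0.17 in the epidermis and 0.43 in the columella. Next came AT2G20450 (adjusted p = 0.178), AT2G40010 (adjusted p = 0.224), AT2G41840 (adjusted p = 0.304) and AT1G27400 (adjusted p = 0.314). So the 15 members called in the stele and in no other sample type were not shown, one by one, to respond more there. Leaving out columella auxin array 1 gave 1 call in place of none.

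The median log2(signal + 16) over the same 34 probe sets was compared between arrays. In the stele it was 12.04, 12.05 and 11.98 with auxin and 11.17, 11.22 and 11.61 without. The 3 auxin-treated stele arrays had the highest values of all 30. In intact roots it was 10.96, 10.70 and 11.14 with auxin, against 10.41, 10.39 and 10.43 without, the last being the lowest values in the series. By this measure the groups did not overlap in the stele, the epidermis, the columella or intact roots, whereas pericycle mock array 3 (11.14) lay above 2 of the 3 auxin pericycle arrays (11.02 and 11.00). The median of a group of probe sets is set by the few in the middle and need not follow the changes of single members. In the columella it averaged 11.24 with auxin and 10.94 without, although the members' median change there was 0.08 with none called, and in the pericycle it averaged 11.11 with auxin and 10.86 without, although 33 of 34 members had a positive change. The pooled SD between replicate arrays was 0.179.

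**Figure D3:**
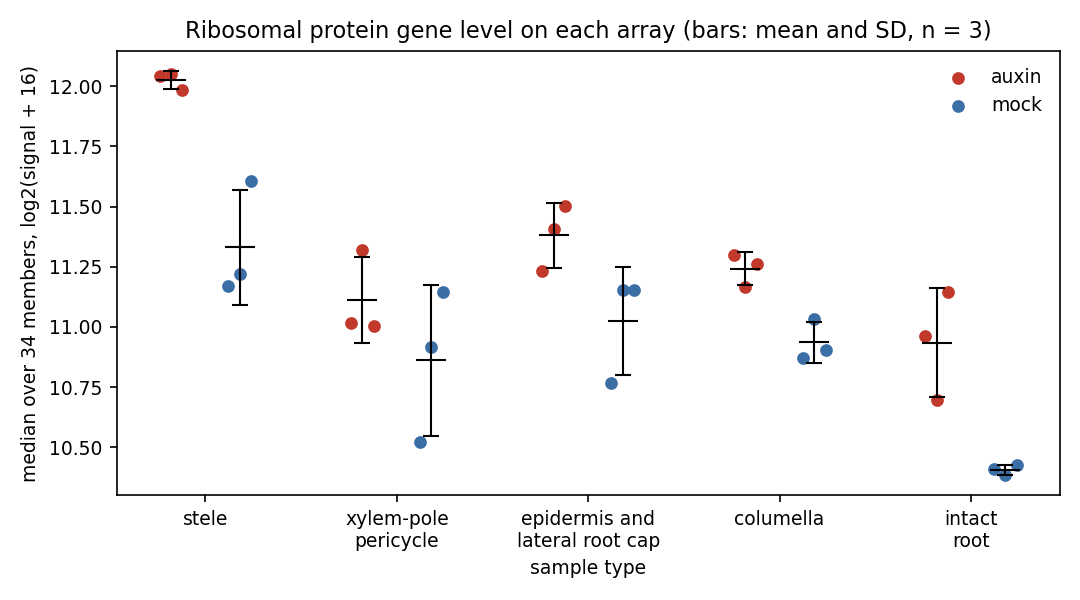
Median log2(signal + 16) of the 34 members on each of the 30 arrays, auxin left of mock in each sample type, with bars for the mean and SD of 3 arrays. Auxin-treated stele lies highest at 12.03 ± 0.04 (SD) and mock intact roots lowest at 10.41 ± 0.02, and in the pericycle the auxin and mock arrays overlap.

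Deviations from the group means moved together from member to member. Their median pairwise correlation over the 30 arrays was 0.467, against 0.004 over all genes tested, with a range of -0.469 to 0.875 over member pairs. These points share their arrays, and so also each array's amplification and scaling. The members were also brighter than most genes, with their median between percentiles 94.07 and 98.79 of an array, so the 2 correlations are not like for like. AT2G37600 followed the others least, with a median correlation of 0.15.

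In intact roots auxin raised 11 of 34 members and lowered none, against 12.0% of all genes called (6.61% higher, 5.34% lower). The members' median change was 0.59, against -0.02 over all genes. All 34 changes were positive, against 4463 of the 9321 genes tested. The unadjusted p was under 0.05 for 27 members, against 2100 of the 9321 genes tested. In 27 members every auxin array was above every mock array, against 16.5% of genes tested. Called members numbered 3 of 10 in the small and 8 of 24 in the large subunit.

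AT1G26880, a large-subunit gene, had 1086, 976.8 and 1203 in auxin-treated intact roots, against 649.3, 530.9 and 449.8 in mock intact roots. The groups lay far apart and it showed the largest rise there, 0.99 ± 0.21 (adjusted p = 7.50e-04), or 1.99-fold. AT2G27710 had 1080, 814.4 and 1554 with auxin and 503.8, 707.9 and 539.0 without, a rise of 0.92 ± 0.30 (adjusted p = 0.0348). Its spread was the wider of these 2 genes, and its call was lost in 5 of 15 alternatives.

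AT1G27400 gave 1455, 1074 and 1780 in auxin-treated intact roots and 811.0, 683.3 and 725.5 in mock roots, a rise of 0.92 ± 0.25 (adjusted p = 0.0108). AT3G02560 gave 2198, 1575 and 1983 with auxin and 1113, 868.5 and 1102 without, a rise of 0.89 ± 0.20 (adjusted p = 0.00156). In both genes auxin array 2 was the lowest of its group and still above every mock array. Of the members, 26 were called in the stele, 11 in intact roots and 8 in both. The share of all genes called in both was not counted, so this overlap does not show agreement between the 2 sample types.

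The number called in intact roots was 5 without mock array 1, 6 without mock array 2, mock array 3 or auxin array 1, 14 without auxin array 2 and 3 without auxin array 3. It was 7 with no intensity trend in the fit, 20 with quantile normalization, and 26 with array weights or with only the intact arrays in the fit. In the same roots the summed signal of the 3 shoot genes was 565 to 751 with auxin and 1340 to 1880 without. The sum of the 3 measured of 5 markers of endodermis and cortex was 412 to 533 with auxin and 1140 to 1280 without, and EXPA7 had 498 to 589 with auxin and 393 to 484 without. Their part in the members' change was not tested.

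Intact roots and sorted cells were compared directly by subtracting the average sorted response from that of intact roots. This called none of the 34 members in limma, where 11.1% of all genes were called (5.27% higher, 5.83% lower). The unadjusted p was under 0.05 for 2 members, against 2238 of the 9321 genes tested, a larger share. The members' median difference was 0.24, against -0.08 over all genes. Without epidermis mock array 1, 1 member was called.

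Without auxin, most members were higher in sorted cells than in intact roots. Of 34 members, 22 were higher and 1 was lower in the mean of the 4 sorted mock tissues, on arrays where 61.0% of all genes were called (30.2% higher, 30.8% lower). The members' median was 0.63, against 0.01 over all genes. In 12 members all 12 sorted mock arrays were above all 3 intact mock arrays, against 16.1% of genes tested, and in none were all below, against 19.6%. The small subunit had 8 of 10 members higher and a median of 0.96, and the large had 14 of 24 higher, 1 lower and a median of 0.53.

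AT1G15930, a small-subunit gene, had 6781, 6993 and 8297 in mock stele, 5719, 6818 and 7575 in mock pericycle, 3432, 7770 and 8464 in mock epidermis and 4707, 5368 and 6141 in mock columella, against 2612, 2131 and 2218 in mock intact roots. Every sorted array was above every intact array, and the difference was 1.45 ± 0.20 (adjusted p = 6.69e-08), or 2.72-fold. AT1G77940 was higher by 1.32 ± 0.18 (adjusted p = 8.34e-08), AT2G20450 by 1.31 ± 0.19 (adjusted p = 2.57e-07) and AT3G02560 by 1.25 ± 0.16 (adjusted p = 1.11e-08).

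AT2G37600 was the only member called lower in sorted cells. It had 169.1, 123.8 and 132.1 in mock stele and 82.00 to 173.2 over the other 9 sorted mock arrays, against 132.4, 294.0 and 314.0 in mock intact roots. Intact mock array 1 lay within the sorted range, and the difference was -0.70 ± 0.23 (adjusted p = 0.00889).

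This comparison shares its mock arrays with the auxin responses, so the 2 sets of changes are not independent. Scaling each array on its 75th percentile moved the median of all genes to 0.15 and that of the members to 0.76, with 27 called higher and 1 lower. Digestion, sorting and cell composition changed together and cannot be told apart, nor can plant line, which was not stated for the intact roots. The 2 measured genes of 10 of wounding and wall digestion, STZ and WRKY53, summed to 766 to 2630 over the sorted mock arrays and 221 to 263 in intact mock roots, and the 3 shoot genes to 173 to 535 over the sorted mock arrays and 1340 to 1880 in intact mock roots. Their part in the members' difference was not tested.

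**Figure D4:**
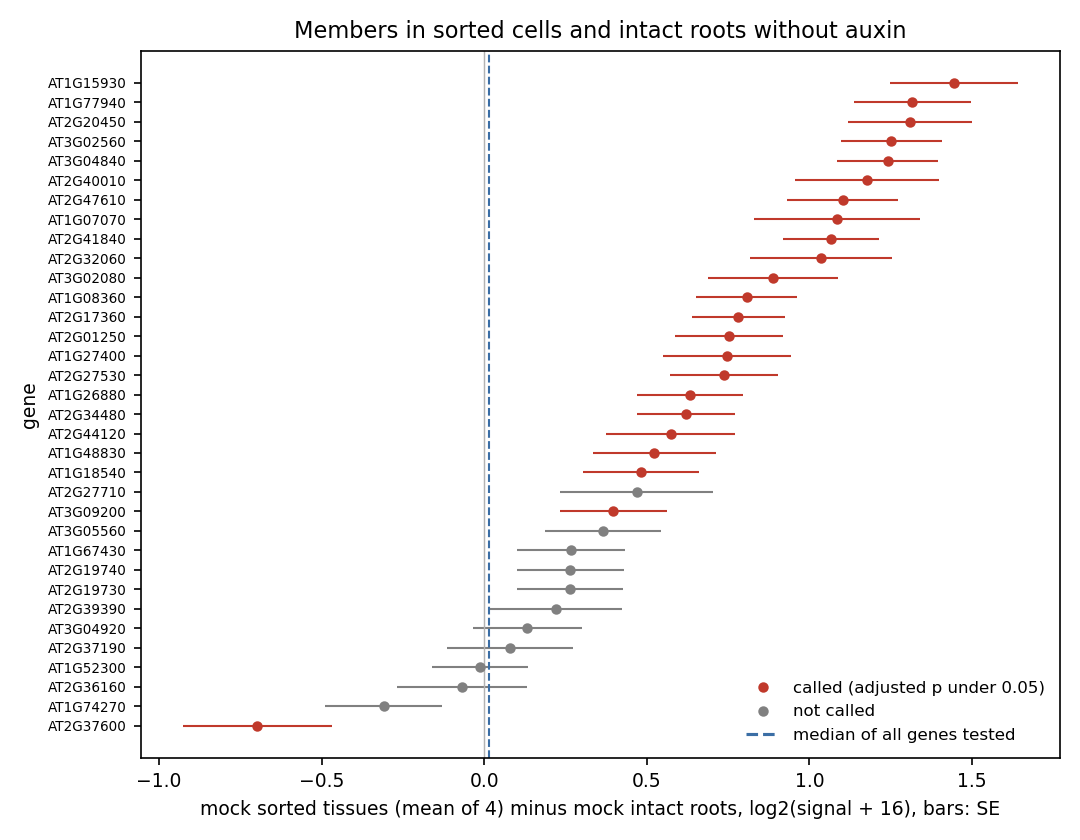
Difference between the mean of the 4 mock sorted tissues and mock intact roots in log2(signal + 16), with bars for the SE, for the 34 members in order of size (PGY1 appears as AT2G27530). Red points are called at adjusted p under 0.05, 22 to the right of 0 and 1, AT2G37600, to the left, and the dashed line is the median of all genes tested, 0.01.

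Within the mock sorted tissues 30 members were highest in the stele and 29 were lowest in the pericycle. The share of all genes with these patterns was not counted. Against the mean of the other 3 tissues the members' median was 0.30 in the stele and -0.30 in the pericycle. All genes had 0.08 and -0.025. The F-test over the 4 tissues called 2 members, where 35.0% of all genes were called. The unadjusted p was under 0.05 for 9 members, against 4205 of the 9321 genes tested, a larger share. AT1G07070 (adjusted p = 0.0311) had 274.8, 352.5 and 408.6 in mock stele, 67.96, 202.1 and 212.1 in pericycle, 183.4, 282.4 and 334.8 in epidermis and 344.4, 261.4 and 162.8 in columella. Against the mean of the other 3 tissues it was 0.66 ± 0.26 higher in the stele (adjusted p = 0.0259 over the genes past the F-test) and lower in the pericycle, at -0.87 ± 0.26 (adjusted p = 0.0079). In the pericycle, mock array 1 was far below the other 2.

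AT3G02560 (adjusted p = 0.0349 in the F-test) had 3025, 3161 and 3666 in mock stele and between 1492 and 2624 on the other 9 sorted mock arrays. The stele arrays were the highest, and its stele level exceeded the mean over pericycle, epidermis and columella by 0.55 ± 0.16 (adjusted p = 0.0035). The next smallest p-values, for AT2G36160 (adjusted p = 0.0516), AT3G04920 (adjusted p = 0.0621) and AT1G26880 (adjusted p = 0.0721), did not pass. The count was 4 without stele mock array 1, 0 without stele mock array 2 or 3, 1 without pericycle mock array 1, 4 without pericycle mock array 2 or 3 and 5 without epidermis mock array 1.

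By the list drawn up for this work, 7 pairs of members encode the same ribosomal protein. Relatives so alike may share probe signal, and no difference within a pair was tested. AT1G07070 and AT1G74270 both rose in the stele, by 1.21 and 0.65. In sorted against intact mock samples AT1G07070 was higher by 1.08, while AT1G74270 had -0.31 and was not called (adjusted p = 0.138). The pair of large-subunit genes AT2G40010 and AT3G09200 lay farthest apart in the average response, with 0.67 and 0.36, both called. In the pericycle their changes were 1.22, called, and 0.37, not called.

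AT1G27400 rose in the pericycle by 0.73, whereas its partner AT1G67430 had 0.19 there and was not called, a contrast that rests on the narrow call of AT1G27400, lost in 10 of 15 alternatives. Both were called in the stele, at 1.09 and 0.70, and in intact roots, at 0.92 and 0.77. AT1G08360 and PGY1 changed by 0.43 and 0.46 on average and were both called. AT2G01250 and AT2G44120 had average changes of 0.30 and 0.36, and AT1G48830 and AT3G02560 of 0.39 and 0.49, all 4 called. AT1G15930 and AT2G32060 each rose by 0.35 on average.

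AT2G19730 and AT2G19740 lie next to each other in the RefSeq annotation and encode different proteins of the large subunit by the same list. In the stele AT2G19730 had 7785, 7898 and 8060 with auxin and 4118, 4436 and 6167 without. Both neighbours rose there, by 0.71 ± 0.21 and 0.81 ± 0.21 (adjusted p = 0.0108 and 0.00422).

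Other genes of the ribosome were also higher with auxin in the stele. Of 82 tested genes on a list of the other cytosolic ribosomal proteins, 55 rose and none fell in the stele, with a median of 0.74, and 32 rose in intact roots, with a median of 0.65. Over all genes tested 14.2% were called higher and 10.1% lower in the stele, and 6.61% higher in intact roots. In sorted against intact mock samples 51 genes of the list were higher and 6 lower, against 30.2% and 30.8% of all genes. The largest average changes on that list were those of AT1G15250 (0.99 ± 0.16, adjusted p = 7.05e-06), AT2G32220 (0.84 ± 0.11, adjusted p = 7.02e-08) and AT5G15520 (0.84 ± 0.16, adjusted p = 8.88e-05).

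All 10 tested genes of 25 listed for ribosome assembly and ribosomal RNA synthesis rose in the stele, with a median of 1.01, and 4 rose in intact roots, with a median of 0.77. In the pericycle 6 of the 10 rose, with a median of 0.89. Over all genes 14.2% were called higher in the stele, 6.61% in intact roots and 6.57% in the pericycle. In the epidermis and in the columella limma called none of the 10, with 1 in each at an unadjusted p under 0.05. Their medians were 0.20 and 0.22, with 4 changes below 0 in the epidermis and 1 in the columella. NRPA2, a subunit of RNA polymerase I, which makes the large ribosomal RNA precursor, had 992.3, 944.3 and 1062 in auxin-treated stele and 282.3, 464.1 and 282.9 in mock stele. The groups were far apart and the rise was 1.54 ± 0.30 (adjusted p = 3.08e-04). Translation initiation and elongation factors, with 7 tested genes of 39, had 1 gene higher in the stele, AT5G19510 (0.62 ± 0.19, adjusted p = 0.0135) and none called in intact roots by limma, where 4 had an unadjusted p under 0.05. Their medians were 0.44 in the stele and 0.42 in intact roots.

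Plastid ribosomal proteins encoded in the nucleus, with 6 tested of 34, had 1 gene higher in the stele, AT4G01310 (1.12 ± 0.35, adjusted p = 0.0188), where 14.2% of all genes were called higher. On average over the sorted tissues 5 were higher, where 25.0% of all genes were called higher. Apart from AT2G43030 their signals were low, with group means up to 121.6. In auxin-treated columella array 1 was the highest for all but AT5G65220, as in AT2G43030 with 369.8, 135.7 and 150.6. In intact roots their median was -0.42, and limma called none, with none at an unadjusted p under 0.05. In sorted against intact mock samples 4 of the 6 were lower and none was higher, with a median of -0.99, against 0.63 for the members. Of all genes, 30.8% were called lower and 30.2% higher there.

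**Figure D5:**
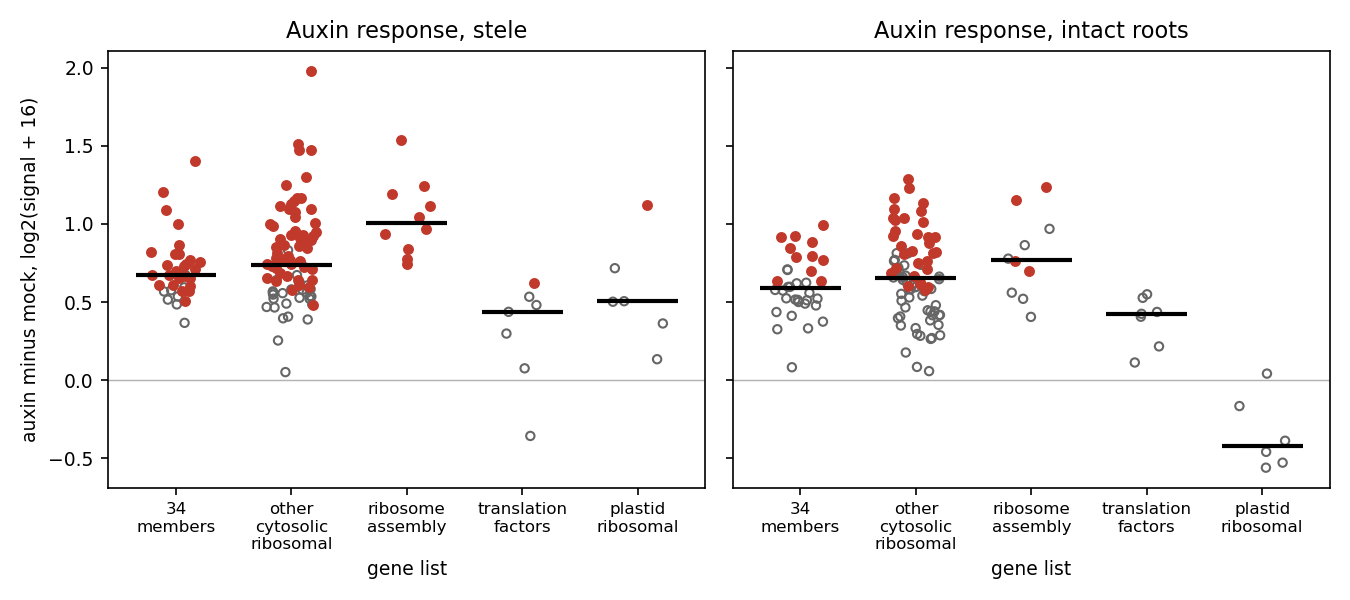
Auxin minus mock change in log2(signal + 16) in the stele (left) and in intact roots (right) for the 34 members and 4 other gene lists, with filled points for called genes and a line for each list's median. The medians in the stele are 0.67 for the members, 0.74 for other cytosolic ribosomal proteins, 1.01 for ribosome assembly, 0.44 for translation factors and 0.50 for plastid ribosomal proteins, which in intact roots have -0.42.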

How the data were processed

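Total RNA was amplified, labelled with biotin and hybridised, per the labels' protocols. The deposited intensity values are MAS5 signals on a linear scale, per the submitters' processing notes, and their trimmed mean, with 2% left off each end, is 250 on every array. Array medians ran from 54.4 to 83.0, and the number of arrays limits the precision. Of 22810 probe sets, 64 were controls, 13513 were paired with 1 gene, 503 with several and 8730 were not listed in the annotation used here. No member had several probe sets.

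The members and gene lists were chosen with earlier results of these data known. Groups came from the sample titles. Values were taken as log2(signal + 16), and 9321 genes above the 40th percentile of their array on at least 3 of 30 arrays were tested in limma 3.58.1 (R 4.3.3) with 10 group means, an intensity trend, 20 residual degrees of freedom and two-sided tests. The steps were tested on simulated data. Named members are the 4 largest rises and falls called in each comparison, the 5 smallest p in each F-test, and every pair of 1 protein. Same-numbered auxin and mock arrays correlated at -0.012 to 0.375 in their deviations, and in no sample type were all 3 above 0.1. In the stele each auxin array correlated best with the mock array of its own number, and elsewhere only some did. These values do not settle whether the numbers mark pairs. The labels state no shared culture or day, so pairing was run only as an alternative, the replicate block. The alternatives were quantile and 75th percentile scaling, a pseudocount of 64, no filter, no trend, array weights, a replicate block, only the groups compared, the mean of a gene's probe sets, and each array left out. The median residual SD was 0.3465 on the log2 scale.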

Additional observations from a re-analysis of the deposited data

Results flagged for a closer look

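AT2G20450 had all 3 auxin arrays above the 3 mock arrays in the stele, with a called change of 0.755, and all 3 below them in the columella, with a change of -0.414 ± 0.241 that was not called (unadjusted p = 0.0937, adjusted p = 0.374 in limma). The columella pattern was shown by 10.4% of all genes tested and by 1 of the 34 members. The moderated F-test over the 4 sorted tissues did not call AT2G20450 (adjusted p = 0.178), and the difference between these 2 tissues alone was not tested.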

How the results depend on the processing

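No comparison and no named member changed direction under any alternative run. Counts of members called within 1.5 times of those reported were found for 178 alternatives and not for 46. In intact roots, against 11 called members, there were 20 with quantile normalization, 7 with no intensity trend, 26 with array weights, 23 with the replicate block and 26 with only the groups compared. In the pericycle, against 2, there was 1 with scaling on the 75th percentile, without the filter, with no intensity trend, with array weights and with only the groups compared, and 5 with the replicate block. In the epidermis, against 3, there were 14 with the replicate block. Of the F-tests, that of the response, with none called, gave 1 with array weights and 2 with the replicate block, and that of the mock level, with 2 called, gave 4 with quantile normalization, 1 with 75th percentile scaling, 1 without the filter, 0 with no intensity trend, 4 with array weights, 10 with the replicate block and 0 with only the groups compared. The intact minus average difference, with none called, gave 1 with array weights. The replicate block moved no other count of members by over 1.5 times. Leaving out each array in turn gave 9 to 23 in the stele, 1 to 3 in the pericycle, 0 to 7 in the epidermis, 24 to 30 on average, 3 to 14 in intact roots, 0 to 1 for intact minus average, 19 to 24 for sorted against intact mock samples, 0 to 1 for the F-test of the response and 0 to 5 for that of the mock level. Of 22 named member results, 8 lost their call in at least 1 alternative, 34 of 447 in all, most often AT1G27400 in the pericycle (10 of 15), AT1G08360 in the epidermis (8 of 15), AT2G27710 in intact roots (5 of 15) and AT2G17360 in the epidermis (4 of 15). The cause was not tested. A p that misses the threshold with 3 arrays a group does not show that a member did not respond.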

Other observations

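Of the 2 measured genes for the target of rapamycin pathway, whose complex promotes ribosome production in plants, RAPTOR2 rose on average over the sorted tissues by 0.84 ± 0.16 (adjusted p = 6.43e-05) and in the stele by 0.97 ± 0.32 (adjusted p = 0.0238). It was also called in the pericycle, at 1.05, although its groups overlapped there (144.9, 34.9 and 58.1 with auxin, 19.78, 43.51 and 15.9 without). RAPTOR2 signals were low, with 52.64 to 102.5 in auxin-treated and 22.74 to 38.33 in mock stele. RAPTOR1 had 0.09 ± 0.12 on average (adjusted p = 0.58). In the stele both measured genes of cell division and the meristem rose, BBM by 1.28 ± 0.41 (adjusted p = 0.0203) and PRL by 1.02 ± 0.31 (adjusted p = 0.0134). Neither was called in any other sample type. PRL had -0.54 in the pericycle, -0.45 in the epidermis and -0.20 in the columella, where BBM had 1.03, 0.40 and 0.79. BBM was near the floor there, with mock signals of 3.094 to 33.53, 4.438 to 37.53 and 8.971 to 31.07, beside the 16 added to each signal. The changes of PRL and BBM were both positive in intact roots.

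Of 4 measured constitutive genes limma called none in the stele, the pericycle, the columella or intact roots, and 1, GAPC2, in the epidermis. There GAPC2 had 7118, 6458 and 6053 with auxin and 2612, 4138 and 3838 without. Its rise of 0.91 was above the largest epidermal change of a member, 0.74. In sorted against intact mock samples 3 of the 4 were lower, PEX4 at -0.76 ± 0.20, AT2G28390 at -0.57 ± 0.21 and AT4G34270 at -0.47 ± 0.17. Of all genes, 30.8% were called lower there. GAPC2 rose by 0.41 ± 0.10 in the average response of the sorted tissues (adjusted p = 6.92e-04), a change near the members' median of 0.37.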
